A study of Mus musculus with 240 samples.

Results

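Pancreatic islets of lean BTBR mice at 10 weeks of age were compared with those of lean BTBR mice at 4 weeks, a span that runs from weaning to early adulthood. The comparison rests on the 10 islet arrays that the labels call BTBR lean, 5 at 10 weeks and 5 at 4 weeks, of 240 arrays in the whole study. BTBR is an inbred mouse strain. Each array carried cRNA of 1 male mouse bred in a university colony, hybridized in 2 colours against a pool of RNA from 20 mice of the same strain and tissue. The labels give the lean mice no drug, diet or Lep genotype, and no mouse number occurs at both ages, so different animals were taken at each age. Islets of lean B6 mice, another inbred strain, and of BTBR ob mice, which carry the ob mutation of the leptin gene, were set beside them at the same ages, again with 5 mice in each group. The ratio to a pool gives no level, so that the islet origin of the RNA could not be checked from hormone or marker levels, and B6 and BTBR levels could not be compared.

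Islets are small clusters of endocrine cells in the exocrine pancreas, in which beta cells secrete insulin, alpha cells glucagon and delta cells somatostatin. In young rodents beta cells divide often, and division slows in the weeks after weaning, when the cells also come to couple insulin release tightly to glucose. Maturation is known to involve the silencing of so-called disallowed genes, which most tissues use and mature beta cells keep low.

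Every value below is a log2 ratio of the mouse to the BTBR islet pool, and a difference is the 10-week mean minus the 4-week mean, in which the pool cancels. Values of single mice are given in the order 26, 30, 31, 32 and 33 at 10 weeks and 36, 37, 41, 42 and 45 at 4 weeks, these being the mouse numbers in the labels. The standard error from the fit stands after ±, with n = 5 per group. It rests on the spread within all 40 islet arrays, ob mice included, and can differ from that of the lean BTBR mice alone. A gene is said to have risen, fallen or changed if its adjusted p in limma was below 0.05 among 19896 genes. The labels do not settle which dye was the numerator, and directions are likely ones: over the 20 BTBR islet mice, a mouse-over-pool reading put the median mean ratio of the 200 most variable probes at 1.07, where a pool of such mice should lie near 1, and the turned reading put it at 3.21. If the ratio in fact ran the other way, each rise would be a fall of the same size. Correlations between arrays of the same age ran from 0.49 to 0.71 at 10 weeks and from 0.41 to 0.73 at 4 weeks, and between ages from 0.28 to 0.50. Mouse 26 at 10 weeks and mouse 36 at 4 weeks correlated least with their own group, and leaving out both gave 3520 changed genes in place of 3319. The labels name no array batch, and nothing in them says how the mice of the 2 ages were spread over array runs.

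Between 4 and 10 weeks, 3319 of 19896 genes changed in lean BTBR islets (16.7%), with 1679 higher at 10 weeks (8.44%) and 1640 lower (8.24%). The changes that exceeded 2-fold ran mostly one way: 212 genes were lower and 43 higher by that size. Cell division genes and matrix genes led the falls. Among rises without overlap, the largest were those of Nupr1, a stress-induced chromatin protein, then Crabp1, Adm2, Olfr328 and Mt1. The values of 2457 genes (12.3%) did not overlap between the ages, 1231 of them higher at 10 weeks (6.19%), and 1986 genes (9.98%) both passed the test and did not overlap. The median difference over all genes was 0.02.

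**Figure D1:**
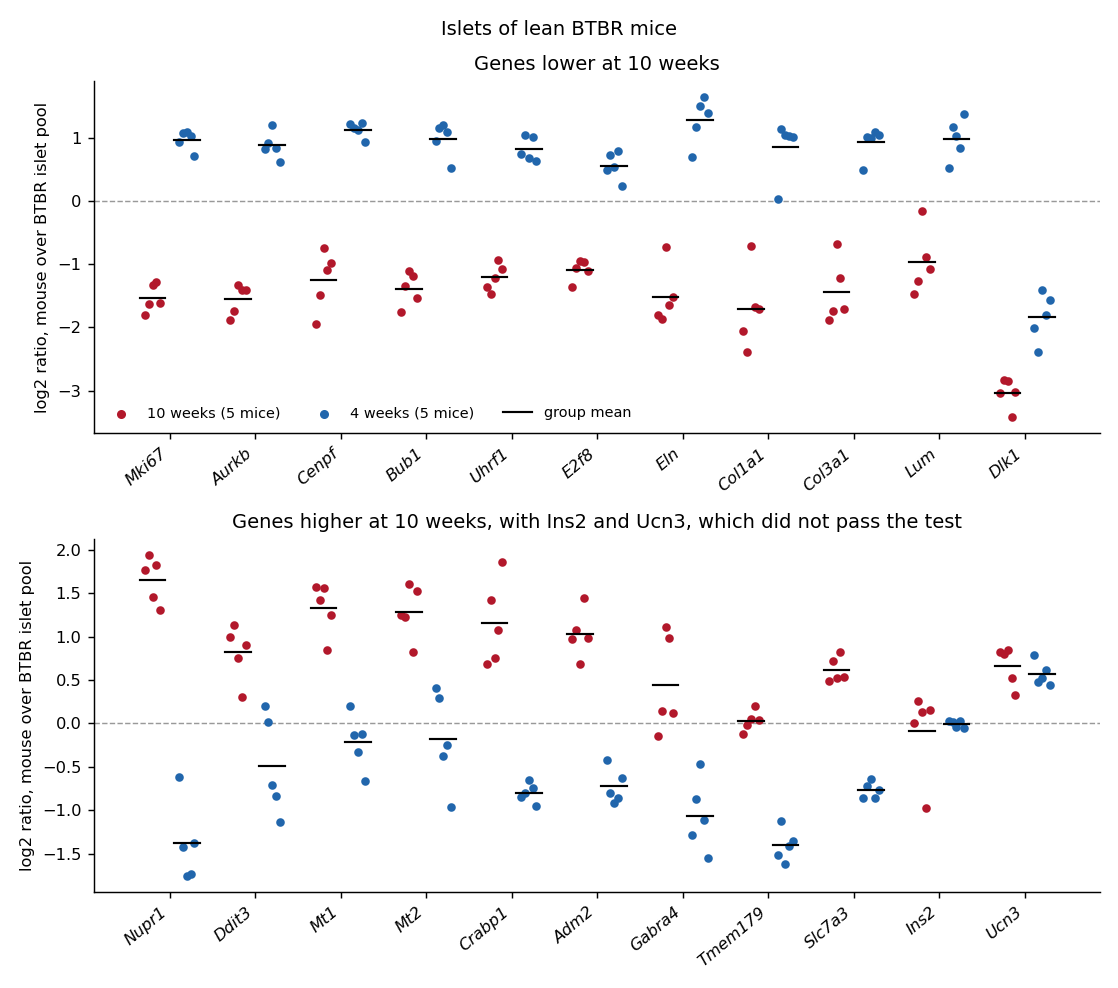
Log2 ratio to the BTBR islet pool (vertical axis) in each of 5 lean mice at 10 weeks (red) and 5 at 4 weeks (blue), with bars at group means, for genes lower (top) and higher (bottom) at 10 weeks. The 10 genes from Mki67 to Lum lie below 0 in every 10-week mouse and above 0 in every 4-week mouse, while the Ins2 and Ucn3 values of the 2 ages overlap.

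Genes of mitosis made up the most uniform change. Of 57 measured members of the mitosis list, 53 fell, none rose, and the same number had values that did not overlap between the ages, against 6.16% of all genes that were lower without overlap. The median difference of the list was -1.59. Its mean per mouse lay between -1.14 and -0.79 at 10 weeks, against 0.40 to 0.82 at 4 weeks, so that no mouse of one age came near the other. In bulk islets, fewer dividing cells and less of these RNAs in each cell cannot be told apart.

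Mki67, the standard marker of cells in cycle, stood at -1.80, -1.62, -1.32, -1.28 and -1.61 in the 10-week mice, against 0.93, 1.07, 1.09, 1.02 and 0.72 in the 4-week mice. All 10-week values lay below the pool and all 4-week values above it, a difference of -2.49 ± 0.28 (adjusted p = 4.3e-08), which puts the 10-week mean at 0.177 of the 4-week mean. Aurkb, the kinase of the chromosomal passenger complex, was between -1.89 and -1.33 at 10 weeks, against 0.62 to 1.21 at 4 weeks, a difference of -2.43 ± 0.27. Cdca8, another subunit of that complex, fell by 2.22 ± 0.22. At the kinetochore, which ties chromosomes to the spindle, Cenpf differed by -2.38 ± 0.33, the checkpoint kinase Bub1 by -2.37 ± 0.30 and Ndc80 by -2.28 ± 0.26. Spindle proteins followed closely, with Aspm lower by a log2 difference of -2.34 ± 0.27 and Nusap1 by -2.25 ± 0.26. Kif20b, a kinesin of late mitosis, differed by -2.33 ± 0.30 and the mitotic kinase Pbk by -2.40 ± 0.35. Depdc1a differed by -2.64 ± 0.31, its values running from -2.22 to -1.37 at 10 weeks, against 0.65 to 1.22 at 4 weeks. Fignl1, an ATPase that acts in the repair of DNA by recombination, fell by 2.29 ± 0.28.

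The 4 mitosis genes that did not pass were Spc25, Ccnf, Dlgap5 and Kif23, at -0.23, -0.01, 0.07 and 0.08. Dlgap5 had 1 low mouse at each age, -1.01 in mouse 32 at 10 weeks and -1.13 in mouse 45 at 4 weeks, against -0.03 to 0.11 in the rest.

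Genes of DNA replication fell too, with smaller differences. Of 48 measured, 42 fell and none rose, with a median of -0.84, and 44 did not overlap. List means per mouse ran from -0.58 to -0.46 at 10 weeks, against 0.24 to 0.45 at 4 weeks. Tk1, the thymidine kinase of dividing cells, was at -1.63, -1.45, -1.28, -1.09 and -1.29 at 10 weeks, against 0.76, 0.87, 0.76, 0.87 and 0.55 at 4 weeks. Every 10-week mouse was thus more than 1 log2 unit below the pool and every 4-week mouse above it, for a difference of -2.11 ± 0.20 (adjusted p = 2.9e-09). Uhrf1, which guides maintenance DNA methylation behind the fork, fell by 2.03 ± 0.21. The polymerase subunit Pole and the helicase subunit Mcm3 fell by 1.87 ± 0.23 and 1.83 ± 0.23. Fen1, a flap endonuclease that also serves repair, had the smallest fall that passed, at -0.28.

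Upstream regulators of the cycle moved less as a group. Of 34 measured, 10 fell and 2 rose, with a median of -0.14. Rises numbered 4 with array quality weights, 1 after quantile normalization and 0 with only the lean BTBR arrays in the fit. Falls numbered 7 after quantile normalization or without 4-week mouse 41. The atypical repressor E2f7 fell by 1.71 ± 0.16, and its relative E2f8, counted in the replication list, fell by 1.65 ± 0.18. Ezh2, the methyltransferase of Polycomb repressive complex 2, was between -0.62 and -0.26 at 10 weeks, against 0.28 to 0.76 at 4 weeks, a difference of -0.94 ± 0.13 (adjusted p = 1.5e-06). Ezh2 is known in mouse islets for holding down the Cdkn2a locus, whose products stop the cycle. Cdkn2a itself differed by -0.01 ± 0.07 (adjusted p = 0.98), its values overlapping between ages. Lin9, a core subunit of the MuvB complex that acts at cell-cycle promoters, fell by 0.80 ± 0.16, and Mycn, a growth-promoting transcription factor, by 0.76 ± 0.16. Ccnd2 and Ccnd1, the D cyclins known to drive beta cell division in mice, did not pass, at 0.09 ± 0.18 (adjusted p = 0.80) and -0.19 ± 0.20 (adjusted p = 0.56). The third D cyclin, Ccnd3, rose by 0.31 ± 0.08 (adjusted p = 0.0072), and its adjusted p was 0.065 when only the 10 lean BTBR arrays entered the fit. The growth factor receptor Pdgfrb fell by 1.02 ± 0.11, and Pdgfra, which is known to tie growth factor signals to Ezh2 in young mouse beta cells, was at -0.27 ± 0.11 (adjusted p = 0.093; 0.033 with only those 10 arrays in the fit).

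Because these genes moved together, the 250 bases before the start of transcription were read for 3 motifs, from RefSeq promoters on GRCm38.p6. The motifs, searched on both strands, were the cell cycle homology region CHR (TTTGAA, or with a CpG in it TTCGAA), to which MuvB complexes bind, the CCAAT box (CCAAT), bound by NF-Y, and an E2F motif (TTGGCGC, its variant TTGGCGG, and a further form TTCCCGC). Read on the other strand, a CCAAT box is ATTGG and can share letters with the E2F motif. Of 46 mitosis promoters found, 34 held a CCAAT box (73.9%), against 34.5% of 27025 promoters, and 16 held a CHR (34.8%), against 17.4%. Both together were in 14 of them (30.4%), against 6.21% of all. Replication promoters shared part of this: of 40 found, 24 held a CCAAT box (60%), 8 a CHR (20%) and 7 both (17.5%). The E2F motif was in 3 of 46 mitosis promoters (6.52%) and in 15 of 40 replication promoters (37.5%), against 7.54% of all. Of 30 matrix promoters, 9 held a CCAAT box (30.0%) and 2 the E2F motif (6.67%). These shares are descriptions of letters and say nothing of binding. The promoters of a pair of genes from each list are shown with the motifs in capitals. They are examples and do not stand for their lists. Mki67 is among the 3 mitosis promoters that held the E2F motif.
Mki67 (chr7:135716380-135716629, - strand): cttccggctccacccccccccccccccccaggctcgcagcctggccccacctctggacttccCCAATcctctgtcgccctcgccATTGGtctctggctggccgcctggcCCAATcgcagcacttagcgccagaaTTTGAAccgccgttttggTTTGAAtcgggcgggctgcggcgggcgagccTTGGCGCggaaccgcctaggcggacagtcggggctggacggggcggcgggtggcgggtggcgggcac
Bub1 (chr2:127831860-127832109, - strand): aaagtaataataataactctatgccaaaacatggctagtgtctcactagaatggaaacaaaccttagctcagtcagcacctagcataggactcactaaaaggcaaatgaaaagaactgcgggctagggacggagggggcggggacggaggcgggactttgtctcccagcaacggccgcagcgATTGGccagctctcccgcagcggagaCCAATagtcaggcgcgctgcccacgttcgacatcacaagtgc
Uhrf1 (chr17:56303087-56303336, + strand): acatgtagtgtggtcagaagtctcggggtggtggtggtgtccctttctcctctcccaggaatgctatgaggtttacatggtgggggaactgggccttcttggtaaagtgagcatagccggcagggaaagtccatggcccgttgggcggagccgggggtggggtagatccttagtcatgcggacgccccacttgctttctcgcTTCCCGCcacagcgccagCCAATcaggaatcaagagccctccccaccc
E2f8 (chr7:48881597-48881846, - strand): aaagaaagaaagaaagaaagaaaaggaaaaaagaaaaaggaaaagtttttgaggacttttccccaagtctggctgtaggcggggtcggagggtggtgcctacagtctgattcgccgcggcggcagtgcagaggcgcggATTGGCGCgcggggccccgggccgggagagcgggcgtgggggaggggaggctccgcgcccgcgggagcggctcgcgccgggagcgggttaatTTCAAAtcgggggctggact
The Mki67 promoter held 3 CCAAT boxes, 2 copies of TTTGAA and TTGGCGC 67 bases before the start. In Bub1 the CCAAT boxes began 68 and 42 bases before the start, with no match to the other motifs. Uhrf1 had TTCCCGC at 48 bases and a CCAAT box at 30. E2f8 had ATTGGCGC, in which a reversed CCAAT box and the E2F motif overlap, and TTTGAA on the other strand 20 bases before the start.

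The extracellular matrix list fell by nearly as much as the replication list. Of 47 members, 33 fell and 1 rose, with a median of -0.79. Their mean per mouse ran from -0.55 to -0.18 at 10 weeks, against 0.20 to 0.47 at 4 weeks. Eln, which encodes the elastic fibre protein elastin, had the deepest fall of the genes named here, and stood at -1.80, -1.86, -0.73, -1.65 and -1.51 at 10 weeks, against 0.69, 1.16, 1.50, 1.64 and 1.39 at 4 weeks. The third 10-week value, of mouse 31, was the highest of its age and still below every 4-week value. The difference was -2.79 ± 0.27 (adjusted p = 3.1e-09), or 0.145 of the 4-week mean.

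The chains of the main fibrillar collagens fell with it. Col1a1 was at -2.05, -2.39, -0.71, -1.67 and -1.72 at 10 weeks, against 0.03, 1.14, 1.05, 1.03 and 1.01 at 4 weeks, a difference of -2.56 ± 0.30. Mouse 31 at 10 weeks and mouse 36 at 4 weeks were the nearest to each other, and the ages did not overlap. Col1a2 differed by -1.83 ± 0.16, Col3a1 by -2.37 ± 0.23 and Lum, a small proteoglycan that spaces collagen fibrils, by -1.96 ± 0.25. Basement membrane chains fell by less, with Col4a1 at -1.08, Col4a2 at -1.07 and Lamc1 at -0.79. The rise was that of Fmod, fibromodulin, at 0.26 ± 0.06 (adjusted p = 0.0027).

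Of 27 matrix enzymes and inhibitors 12 fell and none rose, with a median of -0.21. Adamts2, which removes procollagen N-propeptides, fell by 1.32 ± 0.17. Pcolce2 and Pcolce, which act at the other end of procollagen, fell by 1.03 ± 0.16 and 0.98 ± 0.15. Loxl1, which crosslinks elastic fibres, fell by 1.09 ± 0.15, and Mmp14, a membrane-bound collagenase, by 1.13 ± 0.15. Timp2, an inhibitor of such proteases, did not pass, at -0.17.

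Markers of the cells that make matrix moved with it. Of 20 stellate cell and pericyte markers 10 fell and none rose, with a median of -0.25 and list means of -0.38 to -0.06 at 10 weeks, against 0.05 to 0.21 at 4 weeks. Lum, Dcn and Pdgfrb led these falls and are in the matrix or regulator lists as well, while the pericyte proteoglycan Cspg4 was at -0.11 and did not pass. Of 19 endothelial markers 6 fell, with Aplnr, the apelin receptor, at -1.16 ± 0.16 and Cd34 at -0.69 ± 0.11, and 13 did not pass, Cdh5 and Kdr among them at -0.06 each. The 6 falls became 3 without 4-week mouse 45. The part of these cells in the matrix result was not tested.

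**Figure D2:**
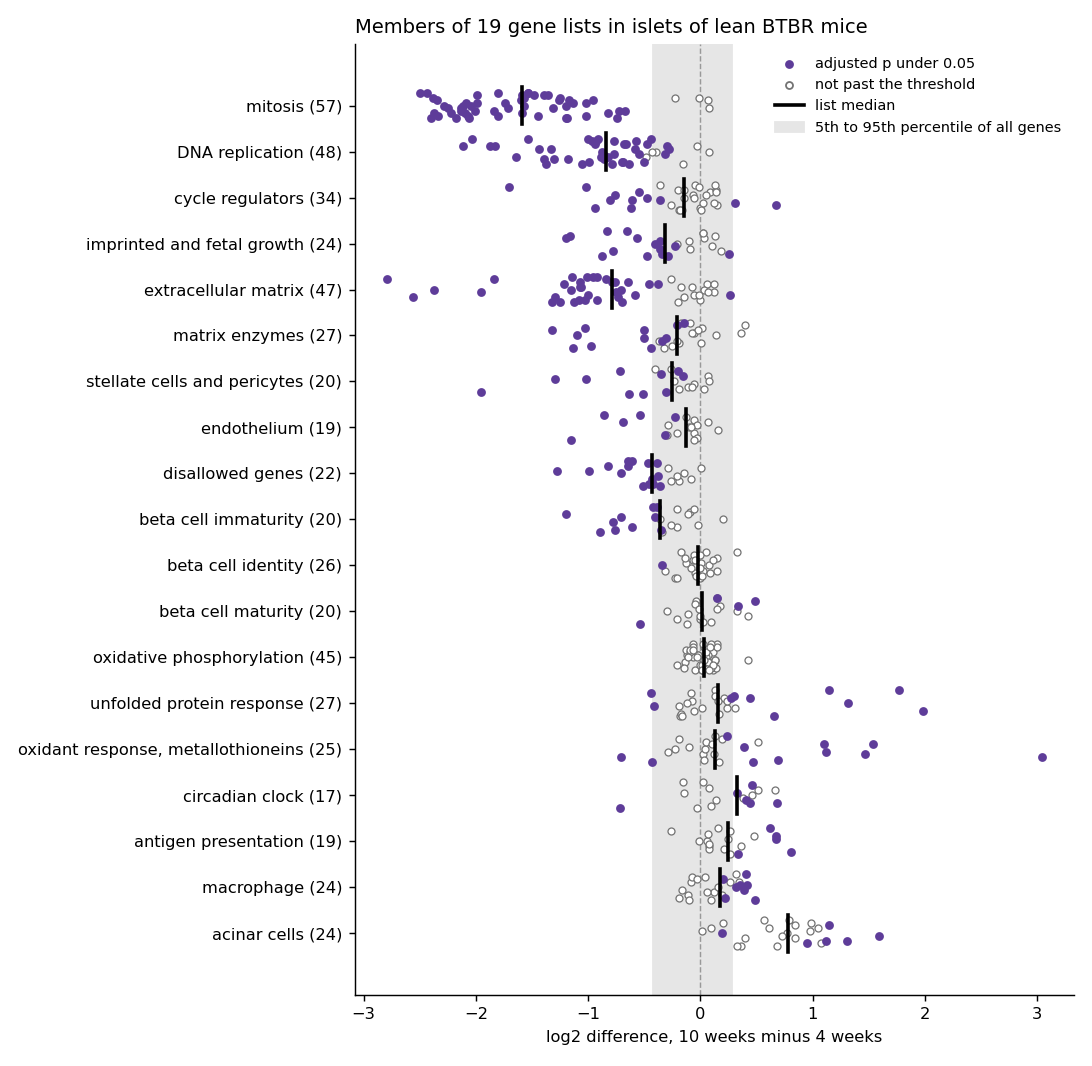
Log2 difference, 10 minus 4 weeks, of each measured member (points) of 19 gene lists in lean BTBR islets, filled where the adjusted p was under 0.05, with list medians as black bars and the 5th to 95th percentile of all genes in grey. Mitosis, replication and matrix members reach far to the left of the grey band, beta cell identity and oxidative phosphorylation members lie almost wholly within it, and most acinar members lie to its right with few filled.

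Genes of fetal growth and genomic imprinting were lower at 10 weeks in the main. Of 24 measured, 14 fell and 1 rose, with a median of -0.31. Dlk1, an imprinted membrane protein related to Notch ligands, was at -3.04, -2.83, -2.85, -3.42 and -3.02 at 10 weeks, against -2.01, -2.39, -1.40, -1.80 and -1.56 at 4 weeks. All 10 lean mice were far below the pool, and the 10-week mice farther, by -1.20 ± 0.23 (adjusted p = 0.00027). Igf2bp2, an RNA-binding protein of growth, fell by 1.16 ± 0.15, and the imprinted Sgce by 0.88 ± 0.12. Gpc3, a glypican that limits body growth, fell by 0.84 ± 0.15, and Phlda2, which restrains placental growth, rose by 0.25 ± 0.06. The growth factor Igf2 did not pass, at -0.21 ± 0.12 (adjusted p = 0.22).

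Of 23 genes of IGF and growth hormone signalling 4 fell and none rose (17.4%, against 16.7% of all genes that changed either way). They included the IGF-binding proteins Igfbp4, at -0.82 ± 0.17, Igfbp1, at -0.77 ± 0.21, and Igfbp7, at -0.74 ± 0.10. Tph1, which makes serotonin and marks the beta cells of pregnancy in mice, was the other, at -0.48 ± 0.11.

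Genes that define the beta cell were nearly level. Of 26 identity genes 1 fell, Pcsk1, a prohormone convertase, at -0.34 ± 0.09 (adjusted p = 0.0078), and none rose; the median was -0.02. List means per mouse were 0.18 to 0.21 at 10 weeks and 0.14 to 0.34 at 4 weeks, the first range lying inside the second. Ins2, the insulin gene measured here, was at 0.01, 0.26, 0.14, -0.97 and 0.15 at 10 weeks, against 0.03, 0.02, -0.04, 0.03 and -0.05 at 4 weeks. The 10-week mouse 32 stood apart and low, and the difference was -0.08 ± 0.12 (adjusted p = 0.71) with it and 0.14 ± 0.06 (adjusted p = 0.085) without it. Whether its spots were saturated was not given. Iapp, the amyloid peptide cosecreted with insulin, was at 0.15 ± 0.06 (adjusted p = 0.083), and passed without the 4-week mouse 37, at 0.18 (adjusted p = 0.035).

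Of 20 genes of beta cell maturity 3 rose and 1 fell (20%, against 16.7% of all genes), with a median of 0.01. Ucn3, a peptide known in mice to appear as beta cells mature, was at 0.82, 0.81, 0.85, 0.52 and 0.33 at 10 weeks, against 0.79, 0.48, 0.53, 0.62 and 0.45 at 4 weeks. The ages overlapped fully (difference 0.09 ± 0.17, adjusted p = 0.77). Mafa, a transcription factor of mature beta cells, was at 0.02 ± 0.17 (adjusted p = 0.95), and its 2 probes disagreed in sign. Syt4, which in mice raises the glucose threshold of secretion during maturation, rose by 0.49 ± 0.12, at -0.33 to -0.16 at 10 weeks, against -0.92 to -0.63 at 4 weeks. Six2, a homeobox gene named for maturity in human beta cells, rose by 0.15 ± 0.04.

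Disallowed genes, in contrast, fell as a list. Of 22 measured 15 fell and none rose, 12 without overlap, and the median was -0.43. Their mean per mouse lay between -0.26 and -0.11 at 10 weeks, against 0.14 to 0.51 at 4 weeks. Slc16a1, the monocarboxylate transporter whose presence in beta cells lets exercise trigger insulin release, was at -0.02, 0.19, -0.24, 0.06 and -0.29 at 10 weeks, against 0.51, 0.62, 0.51, 0.68 and 0.94 at 4 weeks. No 10-week mouse reached the lowest 4-week mouse, a difference of -0.71 ± 0.11 (adjusted p = 1.9e-05). Oat, ornithine aminotransferase, fell by 0.99 ± 0.16, the chemokine Cxcl12 by 1.28 ± 0.19 and the transcription factor Nfib by 0.64 ± 0.13. The 3 probes of Cxcl12 ranged from -2.02 to -0.35. Hk1, the high-affinity hexokinase, and Rest, the repressor of neuronal genes, fell by 0.43 and 0.39. Several members, Cxcl12, Igfbp4 and Pdgfra among them, are also used by stromal cells, whose markers fell over the same ages, and that overlap was not tested.

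Of 20 genes known from immature beta cells 10 fell and none rose, with a median of -0.36. They share Dlk1, Mycn and Slc16a1 with lists above. Npy, a neuropeptide that immature mouse beta cells make, was at -0.42, -0.28, 0.24, -0.02 and 0.23 at 10 weeks, against 0.19, 1.17, 1.21, 0.88 and 0.79 at 4 weeks. The lowest 4-week mouse, 36, lay within the 10-week range and the other four above it (difference -0.90 ± 0.25, adjusted p = 0.011).

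**Figure D3:**
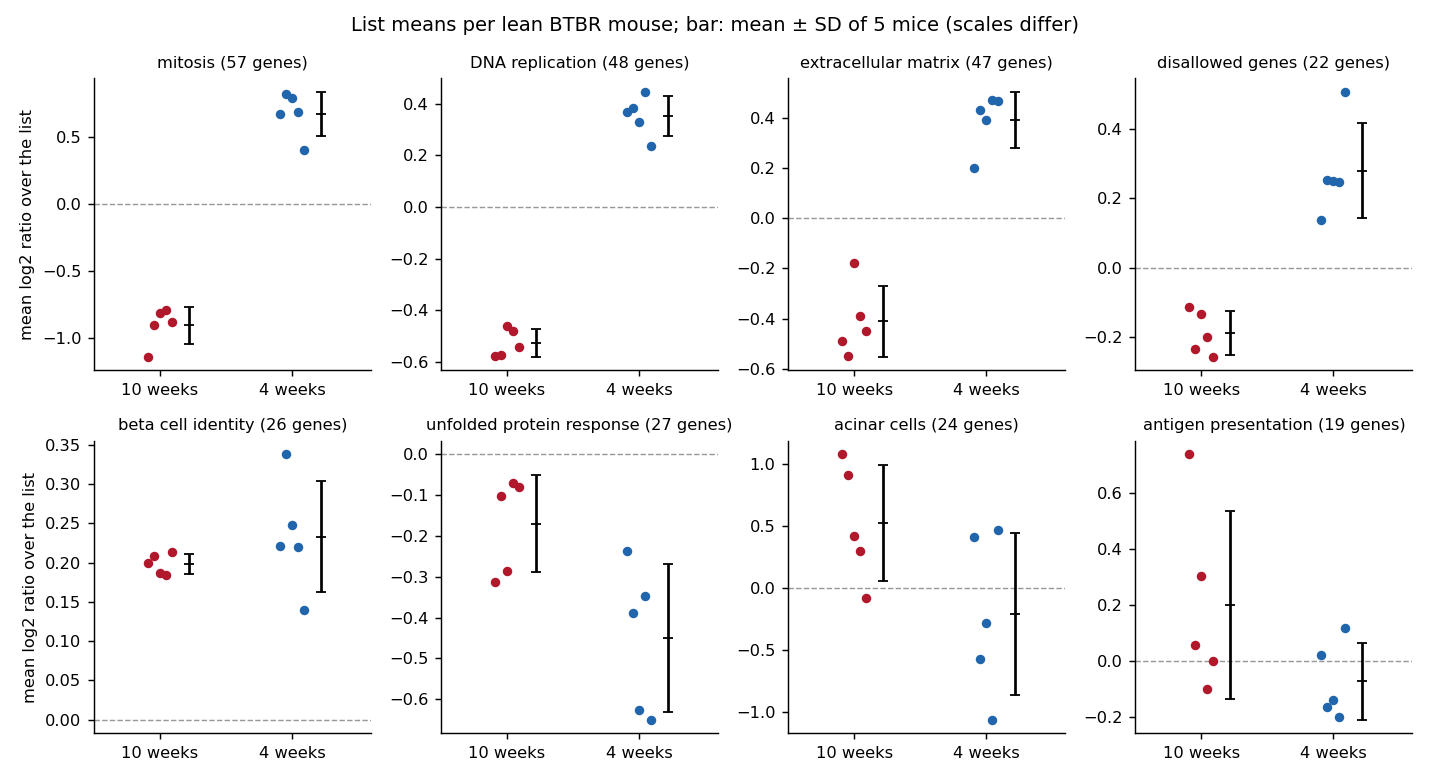
Mean log2 ratio over a list (vertical axis, scales differ) for each lean BTBR mouse at 10 weeks (red) and 4 weeks (blue), with mean ± SD of the 5 mice as black bars, for 8 lists. The ages are apart for mitosis, replication, matrix and disallowed genes, and overlap for beta cell identity, unfolded protein response, acinar and antigen presentation genes.

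Hormones of the other endocrine cells did not pass. Gcg, glucagon, was at -0.18 ± 0.37 (adjusted p = 0.79), with values from -0.06 to 0.00 at 10 weeks, against -0.06 to 0.45 at 4 weeks. Its standard error takes in the spread of the other islet groups and is not that of these values alone. Sst, somatostatin, was at -0.11 ± 0.11 (adjusted p = 0.55) and Ppy, pancreatic polypeptide, at -0.01 ± 0.06 (adjusted p = 0.90). Of 12 genes of these cells 2 fell, Irx2, an alpha cell homeobox gene, at -1.04 ± 0.15 (adjusted p = 4.5e-06), and Rbp4, a retinol carrier that delta cells make, at -0.53 ± 0.15. These 2 made 16.7% of the list, the share called among all genes. With only the lean BTBR arrays in the fit 4 fell. Differences of 10 of the 12 lay below 0, and 4 genes were lower without overlap, against 6.16% of all genes. List means per mouse ran from -0.04 to 0.07 at 10 weeks, against 0.15 to 0.34 at 4 weeks, and did not overlap.

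Of 26 secretory granule genes 2 rose and 1 fell (11.5%, against 16.7% of all genes). Rises numbered 4 when only the lean BTBR arrays entered the fit and 7 with array quality weights. The fall was that of Cplx1, a complexin that clamps vesicle fusion, at -0.99 ± 0.24. Among 22 ion channel genes 7 fell and none rose, with Ano1, a calcium-activated chloride channel, at -0.59 ± 0.10, the calcium channel subunit Cacna1a at -0.52 ± 0.12 and the sodium channel Scn9a at -0.39 ± 0.08. The 7 falls made 31.8% of the list, against 8.24% of all genes that fell. They became 3 without 10-week mouse 30 or 4-week mouse 45. They numbered 4 without 10-week mouse 33, after quantile normalization, or with only the lean BTBR arrays in the fit. Of 29 receptors of incretins, lipids and transmitters 3 rose and 4 fell. These 7 calls made 24.1% of the list, against 16.7% of all genes, and the median was 0.05. Ffar4, a receptor for long-chain fatty acids, fell by 0.81 ± 0.16, and Gpr119, a receptor for fatty acid amides, by 0.69 ± 0.18, while Crhr1, which receives corticotropin-releasing factor, rose by 0.31 ± 0.06. The 4 falls became 2 without 4-week mouse 37.

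Rises were fewer among large changes, and Nupr1 was the largest of those without overlap. It was at 1.77, 1.94, 1.46, 1.82 and 1.30 in the 10-week mice, against -0.62, -1.43, -1.75, -1.74 and -1.37 in the 4-week mice. No 4-week mouse reached the pool and every 10-week mouse was above it, and the difference was 3.04 ± 0.26 (adjusted p = 7.9e-10), or 8.22-fold. Mt1 and Mt2, the metallothioneins that bind zinc and copper, rose by 1.54 ± 0.22 and 1.46 ± 0.23. Mt1 values were 0.85 to 1.57 at 10 weeks, against -0.66 to 0.21 at 4 weeks. The Mt1 and Mt2 sequences are alike, and their probes may share signal. Of 25 genes of the oxidant response, heat shock and metallothioneins 9 rose and 2 fell, with a median of 0.13; the others that rose included Hspa1a, an inducible Hsp70 with a near-identical neighbour, at 1.12 ± 0.20, and its partner Dnajb1 at 1.10 ± 0.24. The 2 probes of Hspa1a disagreed, at 0.10 and 2.13. Falls in the list numbered 4 with only the lean BTBR arrays in the fit or with array quality weights. Enzymes that Nrf2 controls, such as Nqo1, Gclm and Srxn1, did not pass, at -0.10, 0.13 and 0.17.

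In the unfolded protein response list 8 of 27 genes rose and 2 fell, with a median of 0.16. The rises included genes of the arm that runs through ATF4. Ddit3, the transcription factor CHOP, was at 0.998, 1.14, 0.76, 0.30 and 0.91 at 10 weeks, against 0.21, 0.01, -0.71, -0.84 and -1.14 at 4 weeks. The ages were apart by little at their nearest (difference 1.31 ± 0.28, adjusted p = 0.0009). Trib3, a pseudokinase under CHOP, rose by 1.77 ± 0.42 and Chac1, which degrades glutathione, by 1.98 ± 0.50, in both cases with 10-week mouse 31 down among the 4-week values. Asns, asparagine synthetase, rose by 0.66 ± 0.14 and Herpud1, a part of the degradation machinery of the endoplasmic reticulum, by 1.14 ± 0.21. Slc7a3, a cationic amino acid transporter outside the list, rose by 1.39 ± 0.13. The chaperones Hspa5, Calr, Canx and Pdia4 did not pass, at 0.23, 0.13, -0.07 and -0.17. Leaving out 1 mouse at a time left 6 to 8 rises in the list. The falls numbered 0 without 10-week mouse 26, 30 or 31, without 4-week mouse 36 or 42, or after quantile normalization.

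Other genes among the 15 largest rises without overlap have varied roles. Adm2, a peptide of the calcitonin family, was at 0.98, 1.08, 0.68, 1.45 and 0.99 at 10 weeks, against -0.42, -0.80, -0.92, -0.86 and -0.63 at 4 weeks, a difference of 1.76 ± 0.11. Crabp1, which binds retinoic acid in the cytosol, rose by 1.96 ± 0.13, with 10-week values spread from 0.68 to 1.85 and 4-week values between -0.95 and -0.65. Gabra4, a subunit of the GABA-A receptor, rose by 1.50 ± 0.33. Kcnf1, a silent potassium channel subunit, rose by 1.40 ± 0.16 as the mean of 2 probes that disagreed, at 0.04 and 2.77. The membrane protein genes Tmem59l and Tmem179 rose by 1.47 ± 0.15 and 1.43 ± 0.16. Nol3, an inhibitor of apoptosis, rose by 1.35 ± 0.14. The lipid enzymes Degs2, which makes phytoceramide, and Enpp6, a choline phosphodiesterase, rose by 1.33 ± 0.15 and 1.30 ± 0.12. Olfr328, named as an olfactory receptor by its probe, rose by 1.74 ± 0.13.

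Genes of energy metabolism moved little as groups. None of 45 genes of oxidative phosphorylation passed in either direction, with a median of 0.03. At an unadjusted p under 0.05, 4 of them were past the threshold. Of 40 genes of glucose metabolism 3 rose, Eno2, the neuronal enolase, at 0.59 ± 0.10, Me1, malic enzyme, at 0.32 ± 0.07, and Got1, of the malate-aspartate shuttle, at 0.26 ± 0.06; 5 fell. These 8 calls made 20% of the list, against 16.7% of all genes. The rises numbered 5 with only the lean BTBR arrays in the fit or with array quality weights. The falls numbered 3 without 4-week mouse 37 or after quantile normalization. Pdk4, which shuts pyruvate out of the mitochondrion, was at -0.24, -0.43, -0.68, -0.80 and -0.91 at 10 weeks, against -0.20, 0.14, 0.14, 0.47 and 0.65 at 4 weeks, a difference of -0.85 ± 0.22 (adjusted p = 0.0072). The lowest 4-week mouse lay just above the highest 10-week mouse. Of 28 fatty acid genes 5 fell and 2 rose, with Acot1, an acyl-CoA thioesterase with near-identical neighbours, at -1.02 ± 0.16. These 7 calls made 25% of the list, against 16.7% of all genes, and the median was -0.03. The 5 falls became 3 without 10-week mouse 32 or 4-week mouse 41 or 45. In the cholesterol list 2 of 19 genes fell, Stard4, a sterol carrier, at -0.75 ± 0.13, and Dhcr7, the last enzyme of synthesis, at -0.29 ± 0.07, and all 19 differences lay below 0 (median -0.22). The 2 falls made 10.5% of the list, against 16.7% of all genes. They became 4 without 10-week mouse 33 or with only the lean BTBR arrays in the fit, and 5 with array quality weights. The call of Dhcr7 was lost after quantile normalization, at -0.20 (adjusted p = 0.093).

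Of 17 clock genes 5 rose and 1 fell. The fall was that of Arntl, the core activator BMAL1, at -0.71 ± 0.18, whose adjusted p was 0.057 with only the lean BTBR arrays in the fit. The count of rises was 2 without 4-week mouse 45 or 4-week mouse 37, and 3 without 10-week mouse 30 or 10-week mouse 26. It was also 2 with only the lean BTBR arrays in the fit. The hour of dissection was not given.

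Digestive enzyme genes of acinar cells, the exocrine tissue around islets, were higher at 10 weeks with wide scatter. All 24 measured members had differences above 0, with a median of 0.78, and 6 passed (25%, against 8.44% of all genes that rose). Only 1 member was higher without overlap, against 6.19% of all genes. Means per mouse ran from -0.08 to 1.08 at 10 weeks, against -1.06 to 0.47 at 4 weeks, and the ages overlapped. Sycn, a zymogen granule protein, was at 1.61, 1.27, 0.18, 0.50 and -0.12 at 10 weeks, against -0.08, -1.13, -1.03, -1.96 and -0.30 at 4 weeks (difference 1.59 ± 0.39, adjusted p = 0.0043). The count of 6 was 1 without 10-week mouse 30 or any one of the 4-week mice 37, 41 and 42, stood at 3 without 10-week mouse 26 or 31, and was 10 without 4-week mouse 36. It was 2 with only the lean BTBR arrays in the fit and 12 with array quality weights. Trypsin and chymotrypsin genes are alike, and their probes may share signal. These markers moved with age beside every result above, and their part in those results was not tested.

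Reg2, a secreted protein of regenerating pancreas, had the largest age difference of the genes named here, 4.66 ± 1.40 (adjusted p = 0.019). It was at 0.87, 1.91, 1.79, 1.07 and -0.27 at 10 weeks, against -3.52, -4.91, -6.11, -5.58 and 2.17 at 4 weeks. Mouse 45 at 4 weeks was the highest of all 10, and the other 4 of its age were far below. The difference was 6.10 without mouse 45, and the call was lost without 4-week mouse 41 or 42.

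Some markers of immune cells rose, while lymphocyte and interferon genes changed in 18.2% and 12% of cases, against 16.7% of all genes. Of 19 antigen presentation genes 5 rose (26.3%, against 8.44% of all genes) and none fell, with a median of 0.24. The rises included H2-Eb1 at 0.81 ± 0.16, H2-Ab1 at 0.68 ± 0.17 and Cd74 at 0.67 ± 0.15, all of MHC class II. H2-Eb1 was at 1.39, 0.51, 0.91, 0.36 and 0.63 at 10 weeks, against 0.01, 0.13, -0.25, -0.26 and 0.13 at 4 weeks. Mouse 26 was the highest of the 10-week mice, and without it the median of the list was 0.0957, with 5 rises and 1 fall. The calls of H2-Ab1 and Cd74 were lost, at adjusted p = 0.055 and 0.060, with only the lean BTBR arrays in the fit, where 1 of the 5 was left, and 9 genes rose without 10-week mouse 32. Of 24 macrophage genes 8 rose (33.3%, against 8.44% of all genes). Among the 8 were C1qb at 0.41 ± 0.11 and Fcgr3 at 0.35 ± 0.08, whose adjusted p was 0.051 in that smaller fit. Adgre1, Csf1r and Itgam did not pass, at 0.10, -0.16 and -0.08. The 8 became 3 without 4-week mouse 41, 5 without 4-week mouse 42, 4 without 10-week mouse 26 and 2 in the smaller fit. Of 7 red cell genes 3 fell, with Hbb-b1, a beta globin with a near-identical copy, at -1.11 ± 0.29. The 3 falls became 1 without 10-week mouse 33 or 4-week mouse 37 or 41, and after quantile normalization.

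Lean B6 islets over the same ages bear on whether these age effects belong to 1 strain. In them 2976 genes changed (15%), 1389 of them higher (6.98%) and 1587 lower (7.98%), and 1114 genes changed in both strains, 33.6% of the BTBR calls and 37.4% of the B6 calls. Of the 1114, 1082 ran the same way. The difference between the strains' age effects passed for 377 genes (1.89%), 177 higher (0.89%) and 200 lower in BTBR (1.01%). That count rested on single mice: it was 187 to 231 without B6 mouse 47, 35 or 20, 224 to 250 without BTBR mouse 45, 33, 41 or 31, 658 without 10-week B6 mouse 24 and 971 without 4-week B6 mouse 45. In the mitosis list 51 of 57 genes fell and 1 rose in B6, with a median of -1.10, and 3 age effects differed from BTBR. In the replication list 29 of 48 fell and 1 rose in B6, with a median of -0.41, and 4 differed. The matrix list had 34 of 47 fallen in B6, with a median of -0.72, and 2 differing. No disallowed gene differed, with 13 of 22 fallen in B6.

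Pttg1, the securin that holds sister chromatids together until anaphase, parted from the rest of its list. It was at -0.84, -0.84, -0.89, -0.86 and -0.73 in 10-week BTBR mice, against 0.68, 1.18, 0.69, 0.63 and 0.34 in 4-week BTBR mice. The difference was -1.54 ± 0.14 in BTBR, against 0.48 in B6 (adjusted p = 0.022), and the strains' age effects differed by -2.01 (adjusted p = 1.5e-07). Crabp1 rose by 1.96 in BTBR, against 0.02 in B6 (difference 1.93, adjusted p = 3.3e-08), and Adm2 by 1.76 in BTBR, against 0.43 in B6 (difference 1.33, adjusted p = 8.6e-07). Tmem179, Slc7a3 and Enpp6 likewise rose in BTBR and did not pass in B6, at 0.03, 0.14 and 0.32, with differences of 1.40, 1.25 and 0.98. The difference of Olfr328 was 1.28 and that of Gabra4 2.25, and the call of Gabra4 was lost after quantile normalization. Ccnd3 rose in BTBR and fell by 0.27 in B6 (difference 0.59, adjusted p = 0.0046).

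Some of the differences came with a change in B6. Bmpr1b, a receptor of bone morphogenetic proteins, rose by 1.39 in B6 and was at -0.08 ± 0.17 in BTBR (difference -1.46, adjusted p = 0.00053). Aass, of lysine degradation, Apobec2, of the deaminase family, and Pthlh, the parathyroid hormone-like peptide, fell by 1.47, 1.78 and 1.57 in B6 and were at 0.23, -0.14 and 0.13 in BTBR, with differences of 1.70, 1.64 and 1.70. Cldn8, a tight junction claudin, fell by 0.94 ± 0.18 in BTBR and rose by 0.52 in B6 (difference -1.46, adjusted p = 0.0012). Svopl, related to a synaptic vesicle transporter, fell by 1.92 ± 0.27 in BTBR and was at -0.24 in B6 (difference -1.67, adjusted p = 0.015), a call lost when only the 4 lean groups entered the fit.

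**Figure D4:**
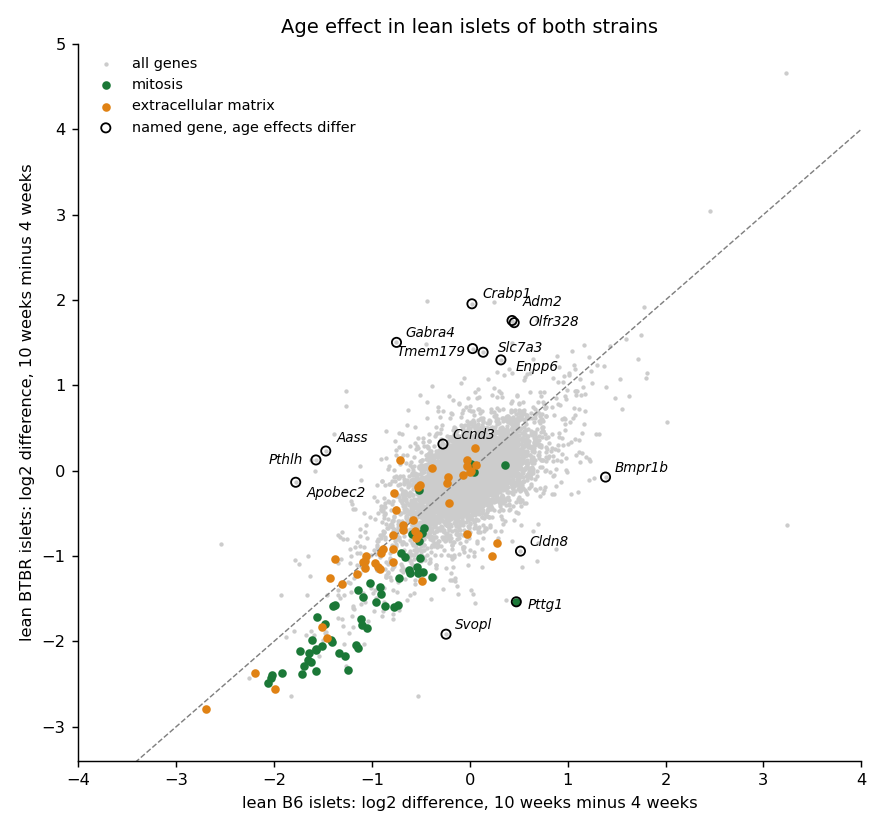
Age effect, 10 minus 4 weeks, in lean BTBR islets (vertical, log2) against lean B6 islets (horizontal, log2) for all genes (grey), mitosis genes (green) and matrix genes (orange), with circles on 15 named genes whose age effects differ between the strains. The matrix points lie along the diagonal, the mitosis points lie below it on the same side of 0, and Pttg1 lies to the right of the other mitosis points.

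In BTBR ob islets the same span changed 6713 genes (33.7%), 3379 of them lower (17%), and the age effect differed between ob and lean mice for 5016 (25.2%). These differences contain the lean mice described above, and both genotypes share the BTBR pool. The mitosis list fell in ob islets as well, with 54 of 57 lower, a median of -1.93 and 6 differing from lean, 1 higher and 5 lower. Pttg1 was at -2.21 in ob islets, a difference of -0.67. Fewer matrix genes passed as lower there: 20 of 47 fell and 1 rose in ob islets, with a median of -0.18, and 20 age effects were higher than in lean islets and 6 lower. Col1a1 was at 0.54 in ob islets (adjusted p = 0.18) and -2.56 in lean islets, a difference of 3.10 (adjusted p = 1.5e-06), and Col3a1, Lum and Eln differed by 2.18, 2.12 and 1.58.

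Beta cell identity genes parted in the other direction. Identity genes, of which 1 fell in lean islets, fell in 17 of 26 cases in ob islets, with a median of -0.47, and 15 age effects were lower than in lean islets. Ucn3 fell by 1.60 in ob islets (difference -1.69, adjusted p = 3.2e-06), and Mafa fell by 0.79 (difference -0.81, adjusted p = 0.0096). Disallowed genes fell in 5 of 22 cases and rose in 2 in ob islets, where 17% of all genes fell and 16.8% rose. Of their age effects 10 were higher than in lean islets and none lower, the main direction of the matrix list. Among all genes 11.8% were higher. Slc16a1 and Cxcl12 differed by 0.90 and 0.999. In the oxidant, heat shock and metallothionein list 7 genes rose and 4 fell in ob islets, and 6 age effects were higher and 7 lower than in lean islets. In the unfolded protein response list 6 of 27 genes fell and none rose in ob islets, and 8 age effects were lower than in lean islets. Among all genes 17% fell in ob islets, and 13.4% of age effects were lower than in lean islets. Of single genes that rose in lean islets, Nupr1 rose by 1.17 (difference -1.87), Mt1 and Mt2 were at -0.31 and -0.34 (differences -1.85 and -1.80), and Ddit3 fell by 0.85 (difference -2.16). Crabp1, Adm2 and Tmem179 differed by -1.89, -1.22 and -1.48.

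Wider gaps between ob and lean islets were found for further genes. Ptger3, a prostaglandin E2 receptor, was between -3.48 and -2.57 in lean mice at 10 weeks, against -3.10 to -2.42 at 4 weeks, and did not pass (-0.33 ± 0.34), while it rose by 5.28 in ob islets (difference 5.61). Gdf10, a ligand of the TGF-beta family, fell by 1.46 ± 0.20 and Aqp4, a water channel, by 0.76 ± 0.17 in lean islets, and they rose by 3.83 and 4.00 in ob islets (differences 5.29 and 4.75). Dlk1 rose by 2.38 in ob islets (difference 3.58), Bmpr1b by 2.34 (difference 2.41), Pdk4 by 1.78 (difference 2.63) and Acot1 by 1.12 (difference 2.14).

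**Figure D5:**
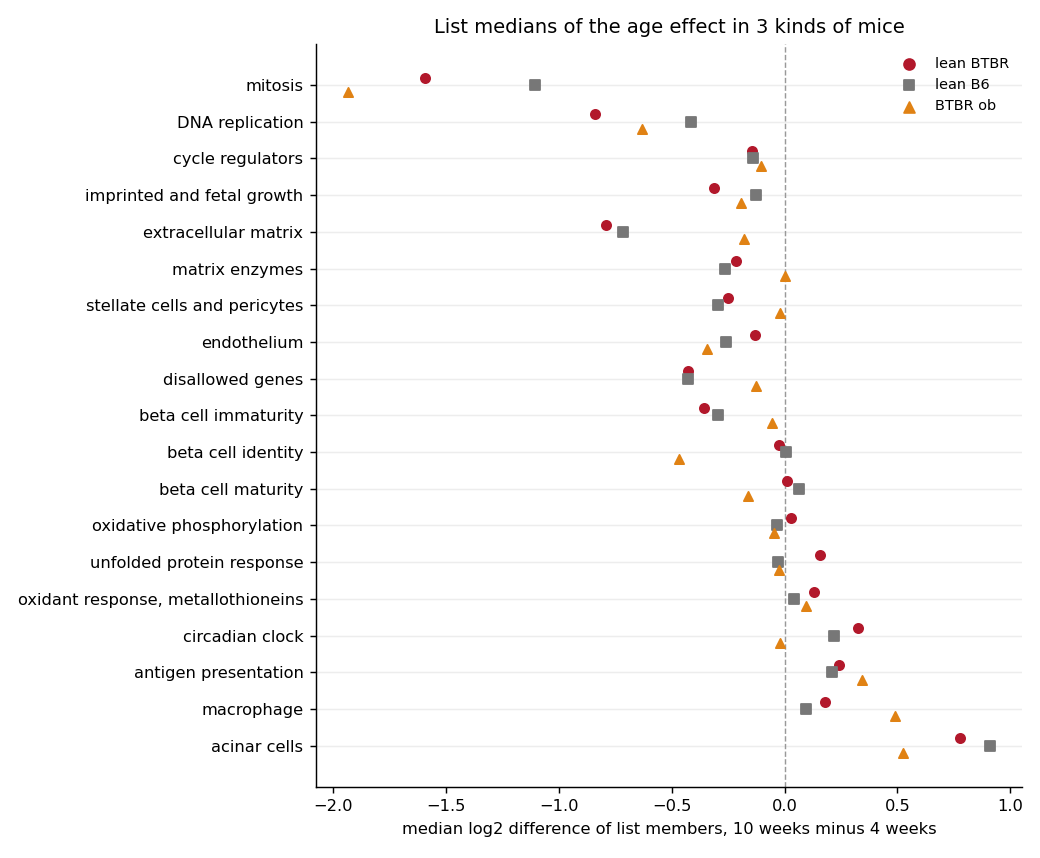
Median log2 difference, 10 minus 4 weeks, over the members of 19 gene lists in lean BTBR (red circles), lean B6 (grey squares) and BTBR ob islets (orange triangles). Lean BTBR and lean B6 medians lie close for matrix and disallowed genes, at -0.79 and -0.72 and both at -0.43, whereas ob islets lie nearer 0 there and lower for beta cell identity.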

How the data were processed

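Expression was read from 2-colour arrays, 1 for each mouse and tissue, and the 10 arrays of lean BTBR islets carry the comparison. Per the labels' protocols, total RNA was taken with Trizol and an RNeasy column and copied to cRNA in 1 round before Cy3 and Cy5 labelling. The values deposited by the authors were taken as log10 ratios, with limits at -2 and 2 that 17 genes reached on a lean BTBR islet array. How spots were scanned, background-corrected and normalized is not given in the sources used here, and no source states the base of the logarithm. Over the 20 BTBR islet mice, base 6.62 put the median mean ratio of the 200 most variable probes nearest to 1, and base 10 gave 1.07. With another base, every log2 difference would scale by a common factor. No depth exists for arrays, and their number limits the precision. Mice are separate animals by their numbers. Genes listed at a limit have only a bound.

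Each log10 value was rescaled to log2. Of 39556 probes, 23283 had 1 gene symbol, and the probes of a gene were averaged to give 19896 genes. One limma fit over all 40 islet arrays gave a mean to each of 8 groups, so that the groups share an estimate of the spread. The contrasts were 10 minus 4 weeks in lean BTBR mice, and this age effect set against that of lean B6 and of BTBR ob mice. Tests are 2-sided, with p-values adjusted by Benjamini-Hochberg over all genes. On simulated data of this comparison, with 200 of 19896 genes changed, the fit found 94% of 2-fold and 89% of 1.5-fold changes, and 1.61% of its calls were false. With no change it called 0. Whether these shares hold on the mouse arrays, where 3319 genes were called, was not tested.

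The members, lists and naming rule were chosen with earlier results of these data known. The 36 lists were described by counts and medians, with no test of a list. The rule named the 15 largest rises and falls without overlap, up to 5 members of each list in each direction, 16 fixed genes that were measured, and the 8 largest differences each way from lean B6 and from ob mice. Of 177 genes it names that passed for age, 52 lost the call when 1 mouse was left out, and of these the text prints only Reg2. Some list members outside the rule were added after their values were seen: Spc25, Ccnf, Dlgap5, Kif23, Fen1, Col4a1, Col4a2, Lamc1, Timp2, Cspg4, Cdh5, Kdr, Rest, Nqo1, Gclm, Srxn1, Hspa5, Calr, Canx, Pdia4, Adgre1, Csf1r and Itgam. Promoter sequences are from RefSeq on GRCm38.p6, with the first listed promoter of a gene taken. The alternatives were a fit on the compared groups alone, median centring, quantile normalization, array weights, genes with 1 probe, each probe tested, values at the limits left out, and each mouse left out. Leaving out mice 26 and 36 together was chosen after seeing the data. Tools were R 4.3.3, limma 3.58.1, Python 3.11.15, numpy 2.4.6, pandas 2.3.3 and matplotlib 3.10.9.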

Additional observations from a re-analysis of the deposited data

Results flagged for a closer look

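Single mice stood apart from the other 4 of their age in 16 of 292 sets of gene values and 8 of 72 sets of list means, where chance alone flags about 1 set in 20. Mouse 36 at 4 weeks was low for Col1a1 (0.0281), Col3a1 (0.50), Col1a2 (0.30), Gpc3 (0.14), Gdf10 (-1.96) and the matrix list (0.20), and high for Srxn1 (-0.17). Mouse 31 at 10 weeks was high for Adamts2 (-0.31), Dcn (0.38), the matrix enzyme list (-0.15) and the stellate cell and pericyte list (-0.0648). Mouse 45 at 4 weeks was low for Pbk (0.67) and Dlgap5 (-1.13) and high for Igfbp4 (0.68), Csf1r (0.89) and the macrophage list (0.22). Mouse 32 at 10 weeks was low for Ins2 (-0.97), Dlgap5 (-1.01) and the immediate early list (-0.17). Mouse 26 at 10 weeks was high for Iapp (-0.0668), the lymphocyte list (0.29) and the interferon list (0.62). Mouse 30 at 10 weeks was low for Mcm3 (-1.28), and mouse 41 at 4 weeks for the cholesterol list (-0.27).

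The age effect differed between lean BTBR and lean B6 islets, by the test of the difference, for 15 named genes. It was higher in BTBR for Gabra4 (2.25), Crabp1 (1.93), Aass (1.70), Pthlh (1.70), Apobec2 (1.64), Tmem179 (1.40), Adm2 (1.33), Olfr328 (1.28), Slc7a3 (1.25), Enpp6 (0.98) and Ccnd3 (0.59). It was lower in BTBR for Pttg1 (-2.01), Svopl (-1.67), Cldn8 (-1.46) and Bmpr1b (-1.46).

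By the same test, the age effect was higher in ob than in lean BTBR islets for Ptger3 (5.61), Gdf10 (5.29), Aqp4 (4.75), Dlk1 (3.58), Col1a1 (3.10), Pdk4 (2.63), Bmpr1b (2.41), Col3a1 (2.18), Acot1 (2.14), Lum (2.12), Eln (1.58), Cxcl12 (0.999) and Slc16a1 (0.90). It was lower in ob islets for Ddit3 (-2.16), Crabp1 (-1.89), Nupr1 (-1.87), Mt1 (-1.85), Mt2 (-1.80), Ucn3 (-1.69), Tmem179 (-1.48), Adm2 (-1.22), Mafa (-0.81) and Pttg1 (-0.67).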

How the results depend on the processing

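The count of genes changed with age was 2819 to 4847 over the other settings at gene level, against 3319, and 2270 to 3405 when 1 mouse was left out. With each of 39556 probes tested it was 5533, of which 60.6% were higher, against 50.6% of the 3319. Array quality weights gave 985 genes whose age effect differed from lean B6 (58.6% higher), against 377 (46.9% higher), and leaving out 1 mouse gave 187 to 971. The count differing between ob and lean islets was 4431 to 5053 without 1 mouse, against 5016. When 1 mouse was left out, falls numbered 53 each time in the mitosis list, 41 to 43 in the replication list, 32 to 34 in the matrix list and 14 to 16 among disallowed genes. Of 111 called genes named here, 0 reversed under any setting run, though their choice favours this, 5 lost the call with only the compared groups in the fit (Ccnd3, Arntl, Fcgr3, H2-Ab1 and Cd74), and 1 after quantile normalization (Dhcr7). How many calls depend on 1 mouse is given only for the naming rule, 52 of 177, since most such genes were left out of the text. Of 612 list counts under these settings, 79 moved by over 1.5 times, and 12 of 36 lists had no such count. Signs turned for genes that did not pass. Without mice 26 and 36 the differences were -0.0614 for Mafa, 0.00257 for Apobec2 and 0.0257 for Ccnf, and quantile normalization gave 0.00335 for Cdkn2a. Leaving out 1 mouse gave -0.0537 to 0.0464 for Cdkn2a, -0.17 to 0.14 for Ins2, -0.0433 to 0.11 for Mafa, -0.0266 to 0.00864 for Ppy, -0.0200 to 0.25 for Pthlh, -0.0419 to 0.0158 for Ccnf and -0.16 to 0.28 for Dlgap5. The cause of these shifts was not tested. No paired analysis was possible because the ages share no mouse number.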

Other observations

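Of 26 immediate early genes, which respond within minutes to stimuli, 4 rose and 2 fell, with a median difference of 0.17. List means overlapped, at -0.17 to 0.66 at 10 weeks, against -0.24 to 0.58 at 4 weeks. The 6 calls made 23.1% of the list, against 16.7% of all genes. That count rested on single mice: none passed without 4-week mouse 41, 1 passed without 10-week mouse 33 or 4-week mouse 42, and 2 passed without 10-week mouse 30 or 31 or 4-week mouse 45. Rises numbered 2 without 10-week mouse 26 or after median centring and 7 without 4-week mouse 37 or after quantile normalization. With only the lean BTBR arrays in the fit 1 gene fell and none rose, and with array quality weights 8 rose. Of 25 interferon-induced genes 3 rose and none fell (12%, against 16.7% of all genes), with a median of 0.02. The 3 rises became 1 without 10-week mouse 32, without 4-week mouse 41, 42 or 45, or after median centring, and without 10-week mouse 26, which stood apart and high, 2 rose and 2 fell, with a median of -0.0465. Of 17 hormone target genes 2 rose and none fell (11.8%, also below the share of all genes), with a median of 0.15. In the Reg family 1 of 9 genes, Reg2, rose.

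Of 14 duct markers 1 rose and 3 fell (28.6%, against 16.7% of all genes). Of 10 glial and neuronal markers 1 rose and 3 fell (40%). Of 22 lymphocyte markers 2 rose and 2 fell (18.2%), and of 10 adipocyte markers 2 rose and 1 fell (30%). These small counts moved by 1 or 2 genes when single mice were left out, as with the adipocyte rises, of which 1 was left without any mouse other than 26. The means of the glial and neuronal list were -0.12 to 0.07 at 10 weeks, against 0.13 to 0.21 at 4 weeks, and did not overlap. Without 10-week mouse 30 or 4-week mouse 41 only 1 of them fell and none rose, and with array quality weights 5 fell. Their part in the results above was not tested.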
